A study of Sus scrofa with 36 samples.

Results

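AMD1 and SRM encode enzymes of polyamine synthesis, and they are described here as 2 of the 12253 genes in the expression table of a pig model of obesity. AMD1 (ENSSSCG00000004392) lies on chromosome 1 from 86399550 to 86423625 and SRM (ENSSSCG00000027689) on chromosome 6 from 65154804 to 65161685, in Sscrofa10.2. Both were chosen by measured values of these same pigs: the study placed them together among the 21 genes of its Lightyellow co-expression module, which it had retained for a relation with fatness traits. The relation between AMD1 and SRM, and their relation to the other module genes, are therefore given as description only, and the group differences are not independent of that choice either. RNA-Seq was carried out on subcutaneous adipose tissue of 36 pigs from an F2 cross of Duroc and Göttingen minipig. The pigs were 12 lean animals (5 females, 7 males), 12 intermediate animals (6 females, 6 males) and 12 obese animals (6 females, 6 males), called Low, Mean and High in the labels and placed by an aggregate genetic index of obesity and not by their measured fat. The groups also differed in age at slaughter and some animals within a group were full sibs, per the study's description, so these and the genetic group cannot be told apart here. Each pig gave 1 library and counts as 1 biological replicate.

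Polyamines are small positively charged molecules that bind nucleic acids and are needed for growth and protein synthesis. Ornithine decarboxylase (ODC1) makes putrescine, S-adenosylmethionine decarboxylase (AMD1) supplies the aminopropyl donor from S-adenosylmethionine, spermidine synthase (SRM) joins both to form spermidine, and spermine synthase (SMS) uses a further aminopropyl group to form spermine. In fat tissue the pathway is known for drawing on S-adenosylmethionine and acetyl-CoA through synthesis and acetylation, and AMD1, ODC1 and SRM are known targets of the MYC transcription factor.

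The table held log2 values from which whole reads could be recovered, and 8735839 to 11755925 reads per pig (median 10496910) were assigned to these genes. Levels below are normalized counts, that is reads divided by the size factor of the pig, whereas differences are on the deposited log2 scale. Levels of different genes are not compared, because gene lengths were not used. Of 10 fat cell markers looked for, PLIN1, LIPE, CIDEC, PPARG, PNPLA2 and PLIN4 had a row under their symbol and ADIPOQ, LEP, FABP4 and LPL had none; the 6 with a row had a summed level from 30285 to 106235 normalized counts. Counts over the other marker lists likewise cover the genes with a row, which were 8 of 10 for macrophages, 5 of 10 for T and NK cells, 4 of 7 for endothelial cells and 6 of 8 for fibroblasts. None of the B cell or skeletal muscle markers looked for had a row under its symbol. In bulk tissue, fewer cells of a type and less RNA per cell cannot be told apart.

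AMD1 had a similar average level in the 3 groups but a wider spread in the intermediate and obese pigs. Its mean level was 666 ± 91.3 normalized counts in lean pigs, 640.1 ± 180.3 in intermediate pigs and 598 ± 214 in obese pigs (SD, n = 12 each). The lean pigs ranged from 541 to 833 (median 650.5), the intermediate pigs from 336 to 980.2 (median 617) and the obese pigs from 359 to 1093 (median 593). The coefficient of variation was 13.7%, 28.2% and 35.8% within lean, intermediate and obese pigs, given as a description without a test, and 22.8% in the 10 obese pigs other than pigs 4 and 6. The groups overlapped: 5 of 12 obese pigs lay below every lean pig and 2 lay above every lean pig.

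For SRM the median was highest in the lean group, and the width of the obese group rested on 2 pigs. The mean was 221 ± 63.9 normalized counts over lean pigs, 182 ± 43.5 over intermediate pigs and 201 ± 120.3 over obese pigs (SD, n = 12 each). The lean pigs ranged from 142 to 315 (median 222), the intermediate pigs from 132 to 301 (median 172) and the obese pigs from 115 to 482 (median 154). The coefficient of variation was 28.9%, 23.9% and 59.9%, but 17.3% in the 10 obese pigs other than pigs 4 and 6, which ran from 115 to 197. The intermediate value includes intermediate pig 6 at 301, where the next intermediate pig had 211. Of the 12 obese pigs, 10 lay below the lean median, whereas obese pigs 4 and 6, both males, had the highest SRM levels of all 36 pigs at 482 and 421. For AMD1 the same obese males had the 3rd highest and the highest level, at 868 and 1093 normalized counts.

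**Figure D1:**
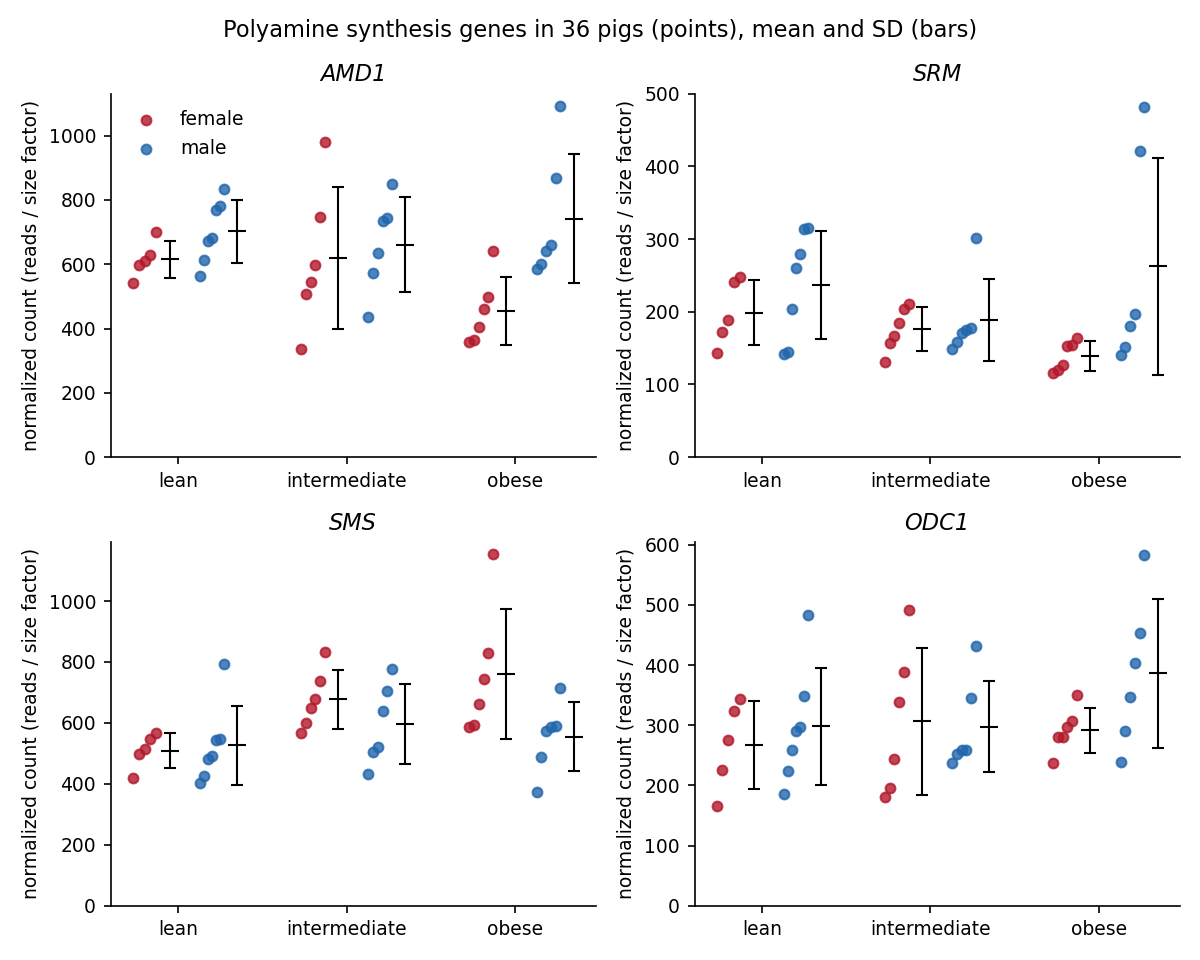
Normalized counts (reads divided by the size factor) of AMD1, SRM, SMS and ODC1 in lean, intermediate and obese pigs; each point is 1 pig, red for females and blue for males, and the black bars are the mean and SD of each sex in each group. Obese females sit low for AMD1 and SRM and high for SMS, and 2 obese males lie above all other pigs for SRM, at 421 and 482.

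The first comparison asked whether either enzyme differed between the genetic groups. By limma with sex as a term, the AMD1 difference, obese minus lean, was -0.21 (log2, SE 0.14), with a 95% confidence interval from -0.50 to 0.085 and an adjusted p of 0.522. The corresponding difference for SRM was -0.23 (SE 0.19), with an interval from -0.62 to 0.15 and an adjusted p of 0.60. Neither gene passed the test, and in all 5 of the 12253 genes, 0.0408%, passed it in this comparison. Both intervals include no difference and reach to -0.50 and -0.62.

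Between intermediate and lean pigs the log2 difference was -0.088 (SE 0.14) for AMD1 and -0.24 (SE 0.19) for SRM. With single pigs left out, it ran from -0.16 to -0.018 for AMD1 and from -0.31 to -0.19 for SRM. Obese minus intermediate gave -0.12 (SE 0.14) for AMD1 and 0.0045 (SE 0.19) for SRM. With other settings, or without obese pigs 4 and 6, these values ran from -0.25 to -0.12 for AMD1 and from -0.25 to 0.030 for SRM. Neither gene passed in either comparison (adjusted p from 0.613 to 0.998), and 0% of all genes did by limma, with 1535 and 524 genes at an unadjusted p under 0.05. Without obese pigs 4 and 6, obese minus lean was -0.35 for AMD1 (adjusted p 0.224) and -0.50 for SRM (adjusted p 0.133). Leaving out these 2 animals moved both values more than 1.5-fold, and neither passed. Both pigs lay above the obese mean for both genes, so leaving them out must lower these differences. No pair of lean pigs was left out to match.

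The ratio of the enzymes' levels was also compared. The log2 difference between AMD1 and SRM averaged 1.63 ± 0.40, 1.79 ± 0.42 and 1.66 ± 0.47 within lean, intermediate and obese pigs (SD, n = 12 each). Obese minus lean, with sex as a term, was 0.024 (two-sided permutation test within sex with 100000 resamples, p = 0.895). The difference was smaller than the SD between pigs, and its sign turned when lean pig 1, 8, 9 or 11 or obese pig 7, 8, 9 or 12 was left out, with values from -0.044 to -0.0043. Without obese pigs 4 and 6 it was 0.15, with no call.

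Split by sex, both enzymes had lower levels in most obese than lean females, without passing the test. AMD1 stood at 598, 628, 701, 609 and 541 normalized counts in the 5 lean females and ranged from 359 to 640.1 in the 6 obese females (median 433). All but 1 of the obese females, 5 of 6, lay below every lean female. The log2 difference in females was -0.52 (SE 0.20), with a 95% confidence interval from -0.93 to -0.11 and an adjusted p of 0.205. SRM stood at 247, 173, 189, 241 and 144 in the lean females and from 115 to 164 in the obese females (median 140.3), a log2 difference of -0.56 (SE 0.27, interval from -1.11 to -0.0062, adjusted p 0.310). All 6 obese females lay below the lean female median for SRM and 3 of 6 lay below every lean female. Neither gene passed, against 0.0326% of all genes called in this comparison. Both intervals lay below 0, but 10.4% of all genes were lower in obese females at an unadjusted p under 0.05 by limma. The share of all genes with as little overlap between the females as AMD1 or SRM was not computed. None of the cell type markers passed the test in females. All 5 T and NK cell markers had higher values in obese females (median 1.23, 4 of 5 at an unadjusted p under 0.05, against 5.38% of all genes), with summed levels from 862 to 2516 against 612 to 1047 normalized counts. Of the 8 macrophage markers 7 had higher values (median 0.77, 1 of 8 at that p), with sums from 8707 to 19373 against 3773 to 15546. All 6 fat cell markers had higher values (median 0.23, 1 of 6 at that p, sums from 67394 to 106235 against 39794 to 88148), and all 4 endothelial markers had lower values (median -0.44, 2 of 4 at that p against 10.4% of all genes lower, sums from 7216 to 12098 against 10202 to 15133). Their part in the female values of AMD1 and SRM was not tested.

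In males the levels of both enzymes overlapped between the groups. AMD1 ranged from 564 to 833 in 7 lean males (median 683) and from 586 to 1093 in 6 obese males (median 651), and SRM from 142 to 315 (median 260.2) and from 141 to 482 (median 189). The log2 difference was 0.074 (SE 0.18, interval from -0.30 to 0.45) for AMD1 and 0.059 (SE 0.25, interval from -0.45 to 0.57) for SRM, with 0.00816% of all genes called. Leaving out obese pigs 4 and 6 turned both to -0.14 and -0.41, and neither passed with or without them. Single pigs also turned the sign in males: AMD1 was -0.043 without obese pig 6, and SRM was -0.030, -0.066, -0.15 and -0.11 without lean pig 2, lean pig 4, obese pig 4 and obese pig 6.

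The difference between the sexes in the obese minus lean change was tested as an interaction. It was 0.60 (SE 0.27, interval from 0.040 to 1.15, adjusted p 0.352) for AMD1 and 0.62 (SE 0.37, interval from -0.13 to 1.37, adjusted p 0.474) for SRM, and 0.00816% of all genes passed. Without obese pigs 4 and 6 the interaction was 0.39 for AMD1 and 0.14 for SRM. The responses of the sexes were therefore not shown to differ.

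Over all groups, AMD1 averaged 702 ± 146 normalized counts in 19 males and 559.9 ± 161.5 in 17 females, and SRM 229.6 ± 99.1 and 169.6 ± 39.3 (SD). Male minus female was 0.33 (log2, SE 0.12, adjusted p 0.121) for AMD1 and 0.34 (SE 0.16, adjusted p 0.243) for SRM. Neither passed, although 2.19% of all genes did, and the differences were 0.24 and 0.17 without obese pigs 4 and 6. With single pigs left out, AMD1 passed once, without intermediate pig 8 (0.38, adjusted p 0.0488), and its adjusted p was otherwise between 0.065 and 0.194. Of the 19 other Lightyellow genes, 18 were higher in males, with a median difference of 0.23 against -0.0093 over all genes, and 0 of 19 passed by limma (12 higher and 1 lower at an unadjusted p under 0.05, against 8.01% and 10.3% of all genes). Cell type markers differed between the sexes as well. Of the 6 fibroblast markers 5 were higher in males and 1 lower (median 0.63), with DCN and COL1A2 past the test (0.62 and 0.97) and summed levels from 254996 to 800014 in males against 150133 to 592146 in females. All 6 fat cell markers were lower in males (median -0.35), with LIPE and PNPLA2 past the test (-0.55 and -0.37) and sums from 30285 to 74040 against 39794 to 106235. None of the other lists had a marker past the test. All 5 T and NK cell markers had lower values in males (median -0.98, 4 of 5 at an unadjusted p under 0.05), with sums from 550.4 to 1104 against 612 to 2516. All 8 macrophage markers did too (median -0.33, 2 of 8 at that p), with sums from 2739 to 15010 against 3773 to 19373. The 4 endothelial markers had a median of -0.12 (3 of 4 lower, 1 at that p). Their part in the values of AMD1 and SRM was not tested.

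**Figure D2:**
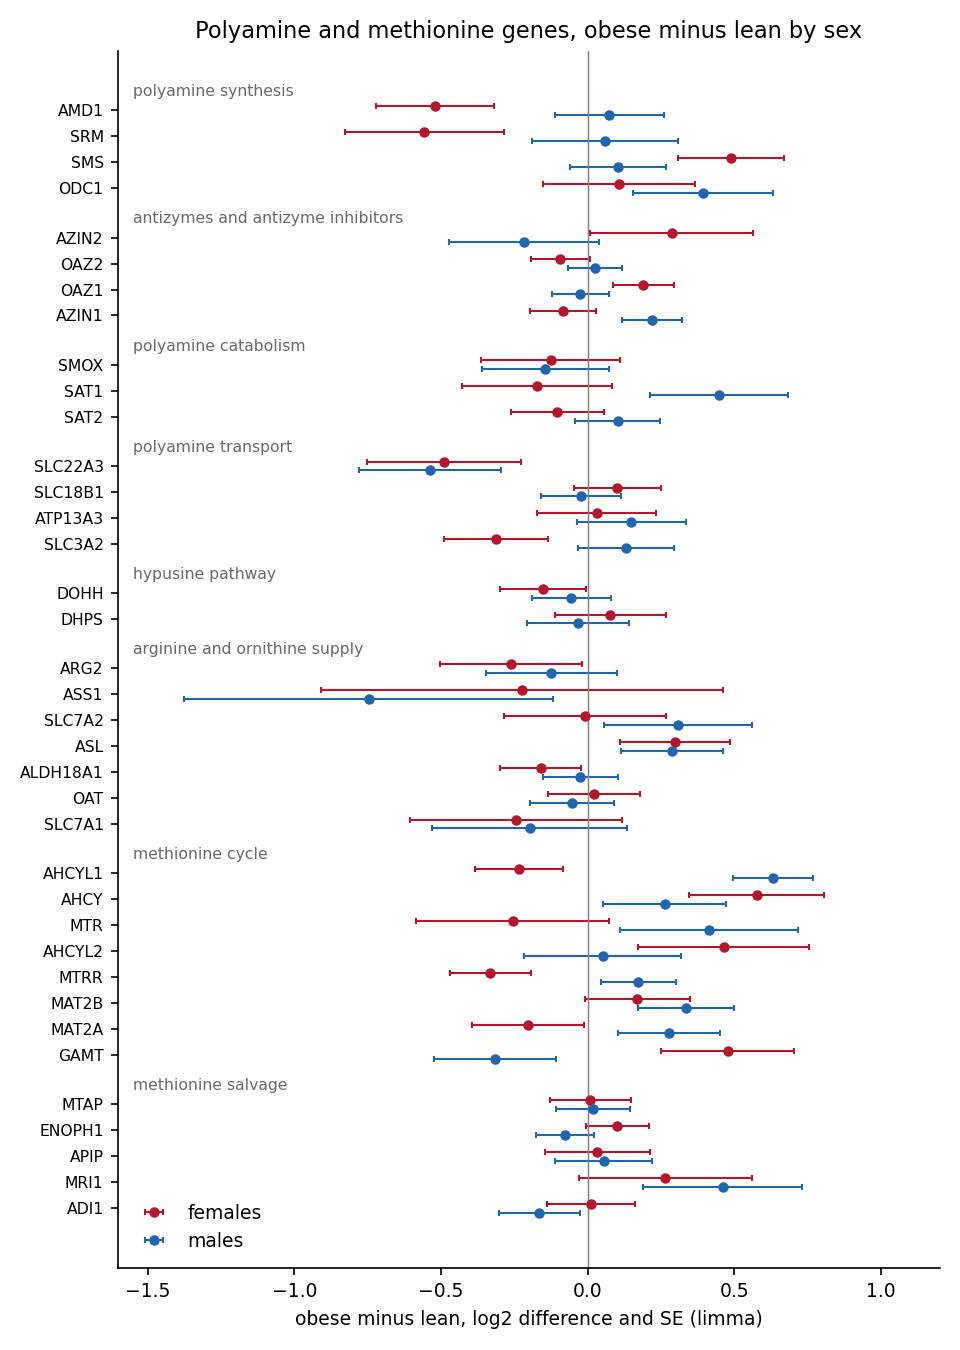
Obese minus lean differences (log2, with SE, limma) for the 37 polyamine and methionine genes in the table, in females (red) and males (blue), grouped by role. AMD1 and SRM lie at -0.52 and -0.56 in females and near 0 in males, SMS lies at 0.49 in females, and no gene shown passed the test in either sex.

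Across pigs, the levels of AMD1 and SRM were moderately correlated. After a linear sex term, Pearson's r over the 36 pigs was 0.51 (jackknife SE 0.10) and Spearman's rho 0.49. The genes share the depth of each library, whose size factor correlated with AMD1 at r = 0.26 and with SRM at r = 0.36 in the deposited values, from which depth is removed only in part. Scaling by the whole size factor gave 0.47. Within groups r was 0.41, 0.50 and 0.61 within lean, intermediate and obese pigs (n = 12 each), and 0.42 over all pigs without obese pigs 4 and 6. The pair is not exceptional among all genes: 3.21% of the other 12252 genes had an r with AMD1 at least as high, and 4.01% had one with SRM at least as high as AMD1's.

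**Figure D3:**
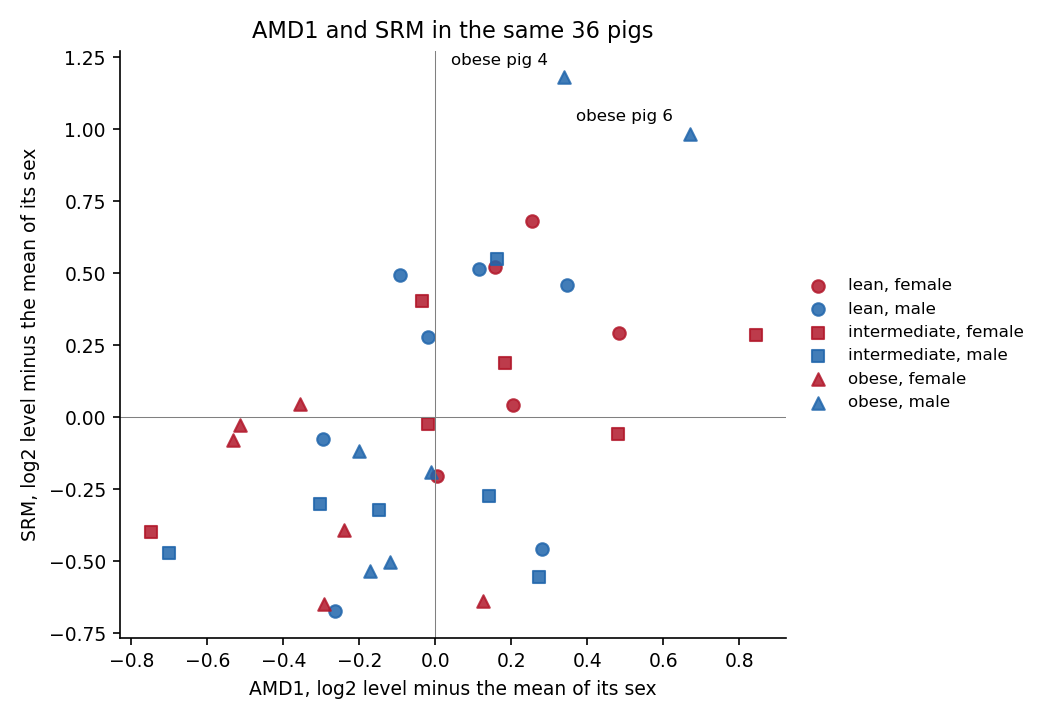
AMD1 against SRM in the 36 pigs, as log2 levels minus the mean of the pig's sex; circles are lean, squares intermediate and triangles obese pigs, red for females and blue for males. The points rise from lower left to upper right with r = 0.51, and obese pigs 4 and 6 stand at the top.

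The other synthesis enzymes with a row were SMS and ODC1, and neither passed the test for obese minus lean. SMS, which follows SRM in the pathway and lies on chromosome X (19303277 to 19353814, Sscrofa10.2), averaged 519 ± 102.2 normalized counts over the lean pigs, 637 ± 119 over the intermediate and 658 ± 196 over the obese pigs (SD, n = 12 each), and obese minus lean was 0.28 (log2, SE 0.12, adjusted p 0.268). In females the 5 lean pigs had 419, 546, 499, 513 and 566 and the 6 obese pigs ranged from 585 to 1155, so that every obese female lay above every lean female, a pattern met by 1.56% of all genes. The log2 difference in females was 0.49 (SE 0.18, adjusted p 0.187) and in males 0.10 (SE 0.17), and the interaction was -0.39 (SE 0.24, adjusted p 0.497), none past the test. SMS correlated with AMD1 at r = -0.52 over the 36 pigs (rho -0.52, -0.50 without the 2 pigs farthest from the AMD1 median, -0.56 with the whole size factor), and the sign held in lean (-0.60), intermediate (-0.63) and obese pigs (-0.40). Of the other 12252 genes, 2.12% had an r with AMD1 as low. With SRM the r of SMS was -0.23, and 0.068 within the obese pigs alone. The study placed SMS in its Greenyellow module, which it had retained for a relation with obesity-related traits of these same pigs. The group differences of SMS are therefore not independent of that choice.

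ODC1, the first enzyme, averaged 285 ± 86 normalized counts over the lean, 302 ± 96.9 over the intermediate and 339 ± 100.1 over the obese pigs (SD, n = 12 each). Obese minus lean was 0.26 (log2, SE 0.17, adjusted p 0.511). The highest ODC1 level, 584, was that of obese pig 6, and obese pig 4 had 454. ODC1 correlated with AMD1 at r = 0.38 and with SRM at 0.37, falling to 0.21 without the 2 pigs farthest from the AMD1 median and to 0.20 without the 2 farthest from the SRM median, which were obese pigs 4 and 6. Within lean, intermediate and obese pigs r was 0.47, 0.48 and 0.50 with AMD1 and 0.12, 0.47 and 0.74 with SRM.

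ODC1 protein is controlled by antizymes, which bind it and send it for breakdown, and by antizyme inhibitors, which release it. The antizymes OAZ1 and OAZ2 and the inhibitors AZIN1 and AZIN2 had rows. None of the 4 passed in any of the 7 comparisons, and their obese minus lean differences ran from -0.031 (OAZ2) to 0.077 (AZIN1). AZIN1 (647 to 1143 normalized counts over all pigs) correlated with AMD1 at r = 0.48 and with SRM at 0.55, while OAZ1 correlated at -0.32 and -0.43, with the opposite sign (0.24 and 0.021) within the intermediate pigs. For SRM and AZIN1 r was 0.017, 0.82 and 0.88 within lean, intermediate and obese pigs, and 0.36 over all pigs without obese pigs 4 and 6.

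Polyamines are acetylated by SAT1 and oxidized back by SMOX, and SAT2 is a related acetyltransferase. SAT2 was the only one of the 35 polyamine and methionine genes beside AMD1 and SRM to pass the test in any comparison, which it did for male minus female, where 2.19% of all genes passed. It was lower in males (199 ± 34.4 normalized counts, n = 19) than in females (274.5 ± 54.4, n = 17; SD), a log2 difference of -0.47 (SE 0.091, adjusted p 0.00306), and 18 of 19 males lay below the female median. SAT1 ranged from 4506 to 19472 normalized counts with no difference called (obese minus lean 0.16, SE 0.18, adjusted p 0.713), and its r with AMD1 and SRM was 0.082 and 0.11. SMOX correlated with SRM (0.46) but hardly with AMD1 (0.058, and -0.024 with the whole size factor); the difference between these values was not tested.

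Among transporters, SLC22A3, an organic cation carrier that moves polyamines, stood at 297 ± 92.9, 211 ± 64 and 204.5 ± 58 within lean, intermediate and obese pigs (SD, n = 12 each), and its obese minus lean difference of -0.51 (SE 0.17, adjusted p 0.143) did not pass. SLC3A2, a subunit of amino acid exchangers also linked to polyamine export, correlated with SRM at r = 0.53 and with AMD1 at 0.023 (-0.044 with the whole size factor). SLC18B1, a vesicular polyamine carrier, correlated with SRM at -0.53, and 0.367% of genes had an r as low. The value was -0.061 in females, -0.79 in males and -0.42 without obese pigs 4 and 6. Spermidine is used to make hypusine in the translation factor eIF5A by DHPS and then DOHH. DOHH (124 to 233 normalized counts) correlated with AMD1 at r = 0.60 and with SRM at 0.48, and its r with AMD1 was 0.72, 0.61 and 0.52 within lean, intermediate and obese pigs, while DHPS showed -0.14 and 0.029 (-0.26 and -0.087 with the whole size factor).

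Arginine enters cells through SLC7A1 and SLC7A2 and is turned to ornithine by arginase, here ARG2. None of the 7 genes of arginine and ornithine supply passed the test in any comparison. SLC7A1 had a median of 101.4 normalized counts in lean pigs (52.8 to 453), 101.6 in intermediate pigs (50.0 to 141) and 75.3 in obese pigs (56.5 to 209). It had the highest r of these with both enzymes, 0.59 with AMD1 and 0.63 with SRM, and 1.09% and 0.955% of all genes had an r as high. Without obese pigs 4 and 6 the values were 0.54 and 0.55. The other 6 genes lay between -0.27 and 0.26 with AMD1 and between -0.11 and 0.42 with SRM.

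AMD1 draws its substrate from the methionine cycle, and the by-product of SRM and SMS returns to methionine through salvage. MAT2A, the synthetase of S-adenosylmethionine, correlated with AMD1 at r = 0.44 (0.56, 0.57 and 0.30 in lean, intermediate and obese pigs) and with SRM at 0.26. Of the 8 methionine cycle genes with a row, of 14 looked for, 7 had higher values in obese than lean pigs (median 0.17, against -0.011 over all genes), and 0 passed by limma (2 at an unadjusted p under 0.05, AHCY at 0.40 and MAT2B at 0.26, against 6.81% of all genes higher at that p). Split by sex, the median was -0.017 in females (4 of 8 above 0) and 0.27 in males (7 of 8), against -0.067 and 0.024 over all genes. The 5 salvage genes, MTAP, MRI1, APIP, ENOPH1 and ADI1, had a median obese minus lean difference of 0.0081 and none passed. Over the 35 genes beside AMD1 and SRM, the median r was 0.054 with AMD1 and 0.11 with SRM, against 0.075 and 0.089 over all genes.

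**Figure D4:**
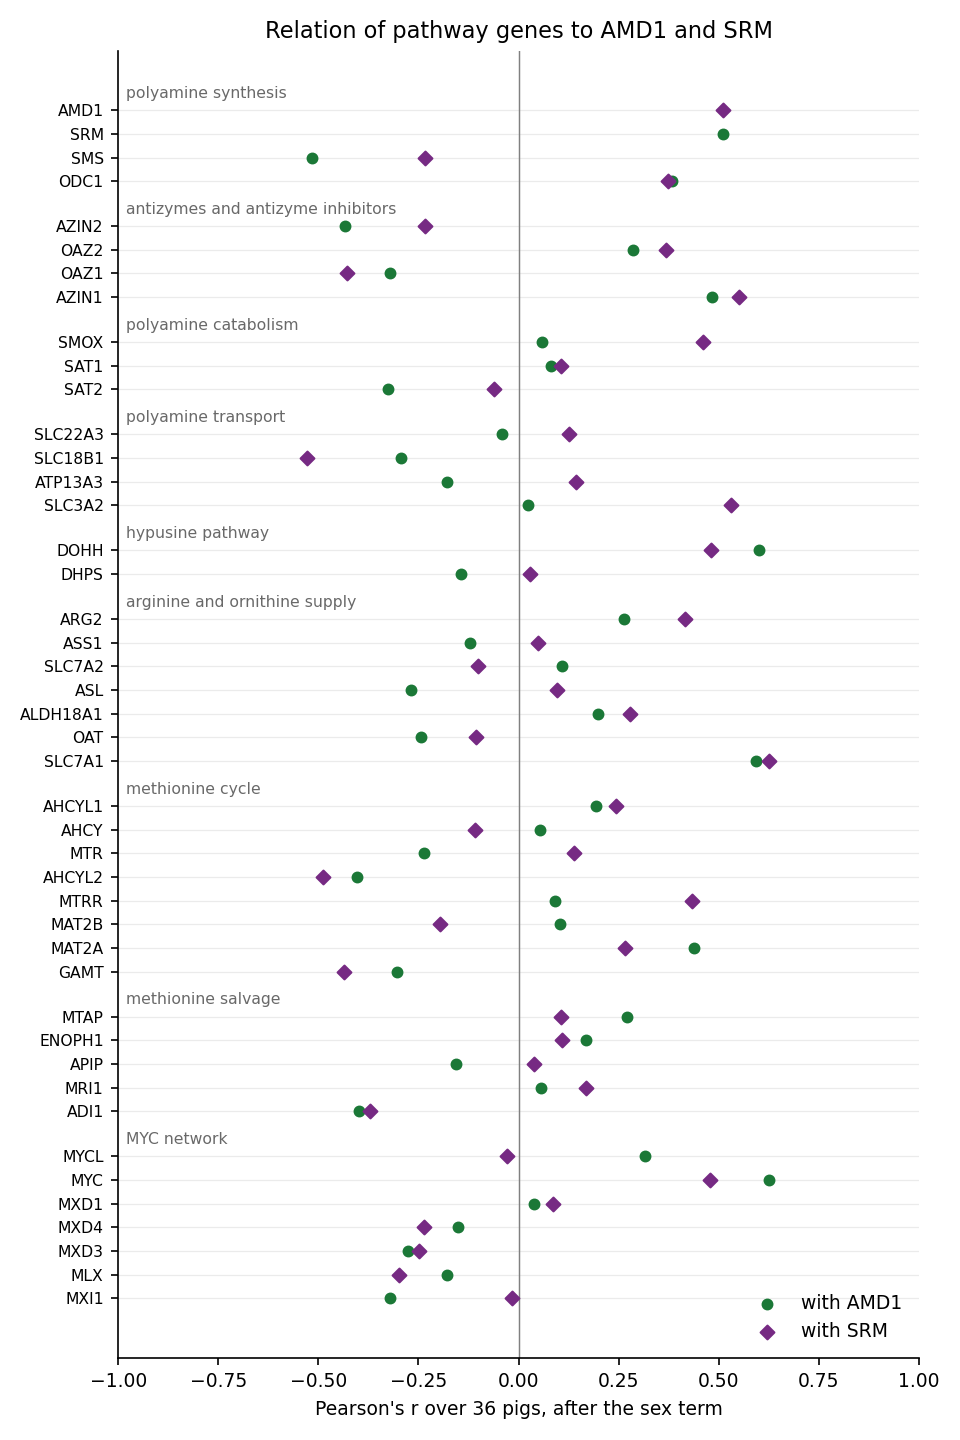
Pearson's r over 36 pigs, after the sex term, of polyamine, methionine and MYC network genes with AMD1 (green circles) and with SRM (purple diamonds). SLC7A1, MYC, DOHH and AZIN1 lie to the right for both enzymes, and SMS lies at -0.52 with AMD1.

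MYC, the transcription factor known to drive AMD1, SRM and ODC1, ranged from 239 to 1107 normalized counts. It correlated with AMD1 at r = 0.63 (rho 0.58, 0.61 with the whole size factor), with 0.66, 0.64 and 0.64 in lean, intermediate and obese pigs but 0.47 in females and 0.82 in males, and 0.628% of all genes had an r as high. With SRM the r was 0.48, falling to 0.30 without obese pigs 4 and 6. Group means of MYC were 506 ± 146, 462 ± 173 and 512 ± 262 within lean, intermediate and obese pigs (SD, n = 12 each), and obese minus lean was -0.057 (SE 0.20, adjusted p 0.934). The other 6 genes of the MYC network ranged from -0.32 (MXI1) to 0.32 (MYCL) with AMD1 and none of the 7 passed the test in any comparison.

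Genes of ribosome biogenesis had a higher median r with both enzymes than the polyamine and methionine genes had. The study had reported ribosome biogenesis and nucleolus terms as overrepresented in the Lightyellow module of these same pigs. A relation of AMD1 and SRM to such genes is therefore part of their choice and is a description only, also outside the module. Of 24 such genes with a row, NOB1, GNL3 and POLR1C belong to the Lightyellow module and are set aside. The other 21 had a median r of 0.37 with AMD1 and 0.45 with SRM, against 0.075 and 0.089 over all genes. For each enzyme 19 of 21 were above 0, as were most of all genes, whose medians are above 0 too. With the whole size factor the medians were 0.31 and 0.38. POLR1B, a subunit of RNA polymerase I, was highest with AMD1 (0.78), and NOP2, an rRNA methyltransferase, was highest with SRM (0.75). POLR1D was lowest with AMD1 (-0.24) and NCL with SRM (-0.13). The mean standardized level of the 21 genes correlated with AMD1 at r = 0.63 and with SRM at 0.73, and obese pigs 6 and 4 had the highest and second highest value of the 36 pigs. None of the 21 passed for obese minus lean (median -0.013).

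**Figure D5:**
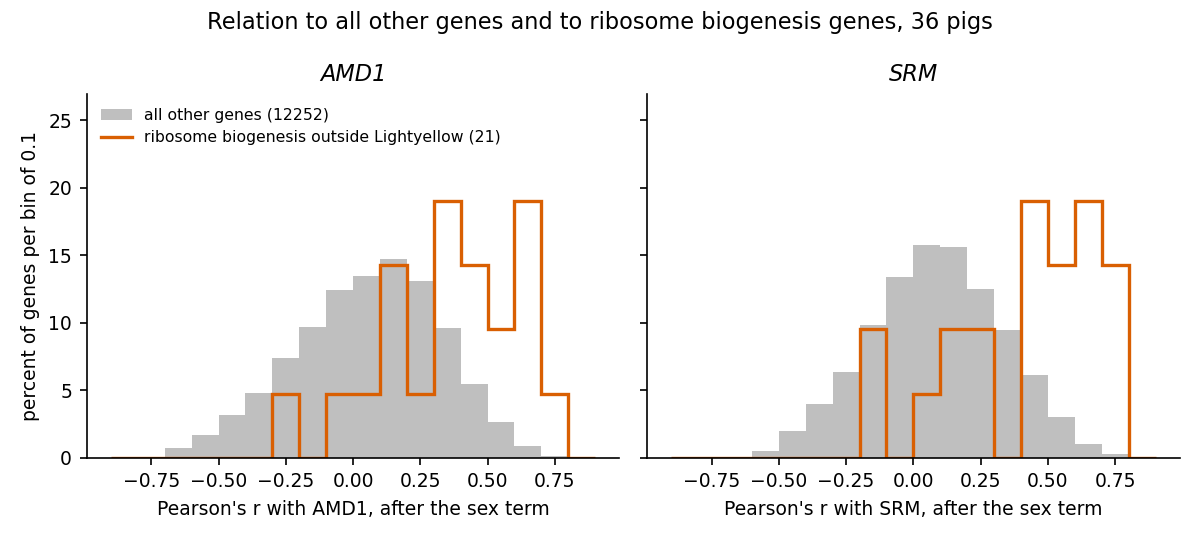
Distribution of Pearson's r with AMD1 (left) and SRM (right) over 36 pigs, after the sex term, as percent of genes per bin of 0.1; grey is all 12252 other genes and the orange line the 21 ribosome biogenesis genes outside the Lightyellow module. The orange line is shifted to the right, with medians of 0.37 and 0.45 against 0.075 and 0.089 for all genes. The study had reported ribosome biogenesis as overrepresented in that module of these pigs, so the shift is a description only.

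Among genes with a symbol, those most like AMD1 were ABCE1 (r = 0.81), a ribosome recycling factor, and GSPT1 (0.79), a translation termination factor. Next came POLR1B (0.78), MORF4L2 (0.76), a chromatin subunit, and DHX15 (0.76), an RNA helicase. Within the groups of 12 pigs these r ranged from 0.59 to 0.94. At the other end of the genes with a symbol stood ACAT1 (-0.73) and DECR1 (-0.72), mitochondrial enzymes of ketone and fatty acid oxidation. The peroxidase PRDX2 (-0.72) followed. The lowest r over all genes, -0.77, was that of a gene without a symbol. DECR1 had r of -0.76, -0.85 and -0.67 within lean, intermediate and obese pigs.

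Among genes with a symbol, those most like SRM were WDR75 (0.83), NOB1 (0.82), NOL9 (0.81), RPP30 (0.80) and RPAP1 (0.78). WDR75, NOB1, NOL9 and RPP30 are known for processing of ribosomal or transfer RNA, and RPAP1 binds RNA polymerase II. In the obese pigs NOB1 reached 0.96 and WDR75 0.93, in the intermediate pigs 0.46 and 0.65. The lowest were NEXN (-0.70) and CALD1 (-0.64), actin-binding proteins of contractile cells, and GLO1 (-0.64), a glyoxalase. None of these genes was among the 5 highest or 3 lowest of both enzymes. An r above 0.5 was found for 448 other genes with AMD1 and 538 with SRM, and 126 genes were in both, 28.1% of the AMD1 genes and 23.4% of the SRM genes. Genes with r below -0.5 numbered 303 for AMD1 and 72 for SRM. Those counts depend on scaling. With the whole size factor 288 and 295 genes lay above 0.5, of which 56 were in both (19.4% and 19.0%), and 410 and 132 lay below -0.5.

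The 19 other Lightyellow genes were chosen for such similarity and are a description only. Their r ranged from -0.64 (FBXL7) to 0.81 (ABCE1) with AMD1 and from -0.53 (FBXL7) to 0.82 (NOB1) with SRM, and 15 of 19 and 13 of 19 lay above 0.5. RANBP1 and PPP1R14B lay near AMD1 (0.72 and 0.60) and less near SRM (0.32 and 0.14), while RAE1 lay near SRM (0.68) and less near AMD1 (0.38). In obese against lean females 17 of 19 were lower, with a median of -0.23 against -0.067 over all genes, and 0 of 19 passed by limma (7 lower at an unadjusted p under 0.05, against 10.4% of all genes).

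Some cell type markers correlated with AMD1. All 6 fat cell markers correlated below 0 with AMD1, from -0.61 (CIDEC) to -0.15, with a median of -0.46. With SRM they ran from -0.41 to -0.058, with a median of -0.21. Their mean standardized level correlated at -0.61 with AMD1 and -0.33 with SRM. Summed over the markers, the median level was 63864 for lean pigs (30285 to 88148) and 68362 for obese pigs (52701 to 106235), and obese pigs 4 and 6 had 52701 and 56536, the fifth and eighth lowest of 36. Macrophage markers were higher in obese than lean pigs in all 8 genes, with summed levels from 6555 to 19373 against 2739 to 15546, and 0 of 8 passed by limma (7 at an unadjusted p under 0.05, against 6.81% of all genes higher). The mean standardized macrophage level correlated at 0.18 with AMD1 and -0.067 with SRM, and that of the 6 fibroblast markers at 0.043 and 0.015. Obese pig 4 had the highest summed fibroblast marker level of all pigs, 800014, whereas obese pig 6 had 360134. The part of cell composition in the AMD1 and SRM levels was not tested.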

How the data were processed

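RNA of subcutaneous adipose tissue was poly-A selected, sequenced paired-end, aligned with STAR to Sscrofa10.2 and counted per gene with HTSeq by the authors, who removed low genes, estimated DESeq size factors and deposited log2 values per gene and pig. The deposited log2 values were found to be log2 of reads plus 0.5 over the size factor plus 1, times a constant: 99.9% of values (lowest pig 99.85%) gave reads within 0.1 of a whole number, so depth is removed only in part and no sex correction was seen. Symbols were matched for 8425 of 12253 gene IDs. Log2 values were fitted with limma 3.58.1 (R 4.3.3), with an intensity trend, on group and sex over 36 pigs, or on the 6 group by sex cells for contrasts within sex and the interaction. Benjamini-Hochberg adjusted p-values over all genes were called at 0.05; limma was checked on simulated counts. Correlations used residuals after a linear sex term. Reads per pig (8735839 to 11755925) bound the precision; library preparation without molecular identifiers means that only counting error is covered by them. The 2 genes and all gene lists were chosen with earlier results of these data known. Named were AMD1, SRM, the genes of the polyamine, methionine and MYC lists, the extremes of the Lightyellow module, and for each enzyme the 5 genes with a symbol of highest and the 3 of lowest r. B cell, skeletal muscle, blood and skin marker lists were also looked up: 2 blood and 2 skin markers had rows, with median r between -0.14 and 0.058 with the 2 enzymes, as did 4 endothelial (0.027 and 0.13) and 5 T and NK cell markers (-0.17 and 0.060). Lanes could not be assigned to pigs. The alternatives were no trend, a filter on the 25% of genes with the lowest mean, median subtraction, voom weights, no sex term, lean and obese pigs alone, and pigs left out; the whole size factor and leaving out obese pigs 4 and 6, or single pigs from the comparisons with intermediate pigs and between sexes, were added after seeing the data.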

Additional observations from a re-analysis of the deposited data

Results flagged for a closer look

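Among 24 sets of pigs of 1 sex in 1 group, checked by gap for AMD1, SRM, ODC1 and SMS, 1 pig stood apart from the others: intermediate pig 6, with 301 normalized counts of SRM among 6 intermediate males, the next of which had 178. Chance alone gives about 1 such pig in 20 sets. Its AMD1 level, 742, was within the range of the other intermediate males.

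The obese minus lean difference was unequal in the sexes at an unadjusted p under 0.05 for 4 of the 37 polyamine and methionine genes, with interactions (male minus female change, log2) of 0.60 for AMD1, 0.87 for AHCYL1, 0.50 for MTRR and -0.79 for GAMT. Over all genes 12.9% were unequal at that p, so the count among the 37 is no higher than the background. None passed after adjustment over all genes (limma adjusted p 0.352, 0.109, 0.266 and 0.285). AHCYL1, a homologue of adenosylhomocysteinase, averaged 1165 ± 181 normalized counts over 7 lean males and 1794 ± 431 over 6 obese males, against 1483 ± 485 over 5 lean females and 1277 ± 188 over 6 obese females (SD). The lean female mean rested in part on lean pig 8, at 2316. The other lean females ran from 1132 to 1429, within the 1117 to 1530 of the obese females.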

How the results depend on the processing

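Under the alternatives run for the 7 comparisons neither AMD1 nor SRM passed the threshold, except AMD1 for male minus female without intermediate pig 8 (0.38, adjusted p 0.0488; 0.12 with all pigs). Genes called for obese minus lean numbered 5 and changed to 12 with no trend, 1 with the filter or without obese pigs 4 and 6, 9 with median subtraction or the whole size factor, 3 with no sex term and 17 with lean and obese pigs alone. Male minus female fell from 268 to 117 without obese pigs 4 and 6. The other calls moved between 0 and 5: females 0 with the filter, males 0 with voom weights or without obese pigs 4 and 6, and the interaction 2 with no trend and 0 with median subtraction, the whole size factor or without those pigs. SRM reversed for obese minus intermediate to -0.0034 (median subtraction) and -0.25 (without those pigs), and in males AMD1 and SRM reversed to -0.14 and -0.41 without them; the cause was not tested. With each pig left out in turn, obese minus lean ran from -0.28 to -0.17 for AMD1 and from -0.36 to -0.18 for SRM, in males from -0.043 to 0.13 and from -0.15 to 0.19, in females from -0.61 to -0.46 and from -0.67 to -0.45, the interaction from 0.48 to 0.68 and from 0.41 to 0.75, obese minus intermediate from -0.19 to -0.042 and from -0.11 to 0.064 (reversed without any of 9 single pigs), intermediate minus lean from -0.16 to -0.018 and from -0.31 to -0.19, male minus female from 0.28 to 0.38 and from 0.26 to 0.38, the ratio from -0.044 to 0.11 and the correlation of AMD1 and SRM from 0.45 to 0.55. That correlation moved beyond its error in lean pigs alone (0.41). SAT2 passed for male minus female under 6 alternatives (-0.48 to -0.45) and without any single pig (-0.50 to -0.44). No paired analysis was possible because the labels number no replicates within groups and the pig numbers given here, in accession order, tie no animals together.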
